A study of Zea mays with 2 samples.

Results

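The maize endosperm stores the starch and protein of the kernel, and Opaque2 (O2) is one of its transcription factors, of the basic leucine zipper family. It binds DNA as a dimer, at sites that include some with an ACGT core. It is known for activating genes of zein storage proteins, of a ribosome-inactivating protein and of pyruvate phosphate dikinase. Kernels that lack O2 are opaque and rich in lysine because they hold less zein. Described here are the sites where O2 gave its highest chromatin immunoprecipitation signal. They are the peaks on chromosomes 1 to 10 whose pileup, the number of overlapping O2 fragments at the summit, was 80 or more. Of 2555 chromosomal peaks, and of 2567 peaks in all, 354 met this rule (13.9%, exact 95% interval 12.5 to 15.3) and are called strong peaks. The other 2201 are called weaker peaks.

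Chromatin came from wild-type kernels, from endosperm of 15 days after pollination. The O2 library was made with a rabbit antibody raised against the full-length protein, and the control library with rabbit IgG that has no set target; there was 1 library of each. Neither antibody has a replicate, so no value below has an error between samples, and no test compares the libraries. The total depth is unknown, and exact (Clopper-Pearson) 95% intervals of shares cover counting error alone: copies made by PCR are not independent molecules, and all peaks come from the same library. The strong peaks were chosen by their pileup in this O2-against-IgG contrast, so their pileup, fold enrichment, background and length are descriptions and support nothing. The peak scores are the authors', and positions are counted from 1 on the release 26 coordinates of the deposited list. No genes were assigned to the peaks and no sequence was read from them, because no genome or annotation of that release was used here.

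The strong peaks reached from 80 to 327 fragments, with a median of 104 (quartiles 90 and 124). The weaker peaks had a median of 26 (quartiles 19 and 40). Among the strong peaks, 155 had a pileup of 80 to 99, another 155 had 100 to 149, 31 had 150 to 199 and 13 had 200 or more. The strong peaks were 13.9% of the chromosomal peaks and held 38.4% of the pileup above background summed over the summits of these peaks. The choice by pileup builds in a share above 13.9%. The limit of 80 does not fall in a gap of the distribution. A pileup of 79 was listed for 8 peaks, and a pileup of 80 for 7. The 43 peaks from 80 to 84 had a median fold of 18.5 and a median length of 479 bp, while the 37 peaks from 75 to 79 had 18.1 and 475 bp.

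Of the 7 peaks exactly at the limit, the first 5 in chromosomal order had folds from 9.51 to 20.6. The highest fold of all 7 was 28.8, on chromosome 8. Chromosome 1 held one at 62476585 to 62476971 with a fold of 18.5, and chromosome 6 held one at 114810387 to 114810851 with the fold of 9.51. The first 5 peaks at a pileup of 79 had folds from 10.2 to 29.5. Just outside the limit, the fold of 29.5 belonged to a chromosome 1 peak at 104208107 to 104208582, over a background of only 1.71. Peaks on either side of the limit thus overlapped in fold.

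Fold enrichment, which is (pileup + 1) over (background + 1), was at least 20 at 250 of 354 strong peaks (70.6%, interval 65.6 to 75.3). Across all chromosomal peaks 12.4% passed this fold, a difference that the choice by pileup builds in. A fold of at least 40 was listed for 23 strong peaks and for none of the weaker ones, whose highest fold was 33.2. Pileup and fold did not pick the same set: of the 354 chromosomal peaks with the highest fold, 266 (75.1%) were strong peaks, and of the 354 with the highest -log10 q, 317 (89.5%) were.

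The background under the summit, which the peak caller takes from the IgG library, was somewhat higher in strong peaks. In units of pileup, its median was 3.37 under strong peaks (quartiles 2.78 and 4.89) and 2.85 under weaker peaks (quartiles 1.96 and 3.63). A background of at least 5 stood under 71 strong peaks (20.1%, interval 16.0 to 24.6) and under 175 weaker peaks (7.95%, interval 6.85 to 9.16). At 186 strong peaks (52.5%, interval 47.2 to 57.8) the background was a whole multiple of 0.979, read as the value of 1 IgG fragment where the count on the summit itself set the background, against 810 weaker peaks (36.8%, interval 34.8 to 38.9). The lowest background of the list, 1.35, was given to 4 strong and 183 weaker peaks. The lowest background is above the value of 1 fragment, and a background taken from a wider window does not show the count on the summit, so these values do not give how often IgG fragments lay on summits.

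**Figure D1:**
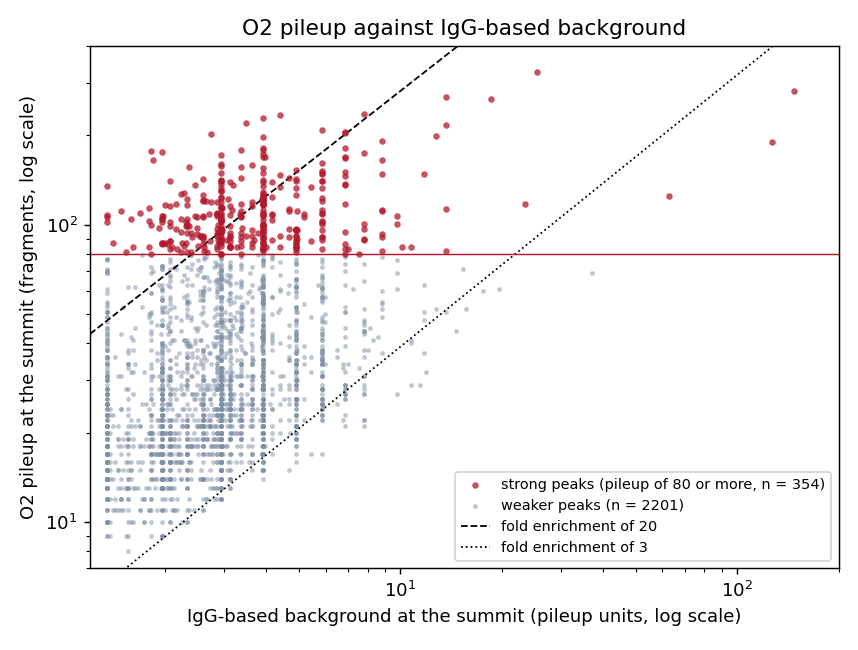
O2 pileup at the summit (vertical, fragments) against the IgG-based background recovered from pileup and fold (horizontal, pileup units), both on log scales, for 354 strong and 2201 weaker chromosomal peaks. Each point is a peak, the horizontal line marks a pileup of 80, and 3 strong peaks lie at the far right below the line for a fold of 3.

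The highest pileups were not the highest folds. The strongest of all by pileup lay on chromosome 8 at 100135827 to 100136412, with 327 fragments over a background of 25.4, which equals 26 IgG fragments. Its fold was 12.4. The second, on chromosome 6 at 67873245 to 67873550, had 283 fragments over 147.8, which equals 151 IgG fragments, and a fold of 1.91. The next 2, on chromosome 1 at 118001049 to 118001706 and on chromosome 7 at 49158284 to 49158900, had 270 and 265 fragments over backgrounds of 13.7 and 18.6. Thus the first 4 peaks by pileup all stood on backgrounds above 10. A background of at least 10 stood under 14 of 354 strong peaks (3.95%) and 17 of 2201 weaker peaks (0.772%). Across all chromosomal peaks the share was 1.21%.

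The following 6 by pileup had backgrounds from 3.48 to 13.7 and folds from 14.8 to 49.4. They included a peak on chromosome 7 at 61550786 to 61551339 with 236 fragments, one on chromosome 4 at 36375025 to 36375632 with 234 and one on chromosome 8 at 56490589 to 56491178 with 216. The other 3 lay on chromosome 3, at 203271152 to 203272089 with 229 fragments, at 118016974 to 118017564 with 220 and at 183179497 to 183180030 with 209. Among the strong peaks the highest folds, 63.2, 59.9 and 58.4, came at pileups of 177, 176 and 165. They belonged to peaks on chromosome 4 at 132241462 to 132242092, on chromosome 5 at 170565902 to 170566501 and on chromosome 8 at 158791325 to 158791957, each over a background under 2.

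A fold under 10 was listed for 13 strong peaks (3.67%) and for 64.0% of all chromosomal peaks. A fold under 3 was listed for 3 strong peaks (0.847%), near the share of 0.744% over all chromosomal peaks. Those 3 were the chromosome 6 peak with 283 fragments, a peak on chromosome 2 at 172725549 to 172725834 with 190 fragments over 127.2 (fold 1.49), and one on chromosome 1 at 8186170 to 8186532 with 125 fragments over 62.6 (fold 1.98). They were also the 3 shortest strong peaks, at 306, 286 and 363 bp. A background of at least 20 was found under 5 strong peaks and under 1 weaker peak.

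Strong peaks were long and nearly symmetric. Their median length was 509.5 bp (quartiles 484 and 552), while that of weaker peaks was 354 bp (quartiles 300 and 423). A length of 500 bp or more was listed for 212 strong peaks (59.9%) and 102 weaker ones (4.63%). Median length was 492 bp at a pileup of 80 to 99, 517 bp at 100 to 149, 602 bp at 150 to 199 and 590 bp at 200 or more. A called interval reaches further where its summit is higher, so length is not independent of the choice. The longest were the chromosome 3 peak at 203271152 (938 bp), a peak on chromosome 5 at 103929152 to 103929906 (755 bp) and one on chromosome 1 at 207573524 to 207574267 (744 bp).

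The summit lay at a median of 50.0% of the peak's length from its start in strong peaks (quartiles 48.1 and 52.4%), and at 49.7% in weaker peaks (quartiles 46.9 and 52.8%). It lay within 10% of the length from the centre in 348 of 354 strong peaks (98.3%, interval 96.3 to 99.4) and in 1950 of 2201 weaker peaks (88.6%, interval 87.2 to 89.9). In bp the medians hardly differed, at 10.5 bp from the centre in strong peaks and 11.0 bp in weaker peaks. Within 50 bp of the centre were 97.2% of strong and 94.1% of weaker summits.

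Of the 6 strong peaks with an off-centre summit, 2 were among the 3 short peaks on a high background. The other 4 were long, from 663 to 938 bp. Besides the 2 longest strong peaks they were one on chromosome 3 at 212260082 to 212260764, with its summit 438 bp from the start, and one on chromosome 7 at 96465378 to 96466040, with its summit 236 bp from the start. In the longest, on chromosome 3, the summit lay 600 bp from the start of 938 bp. The choice of these 6 was made after seeing their values.

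**Figure D2:**
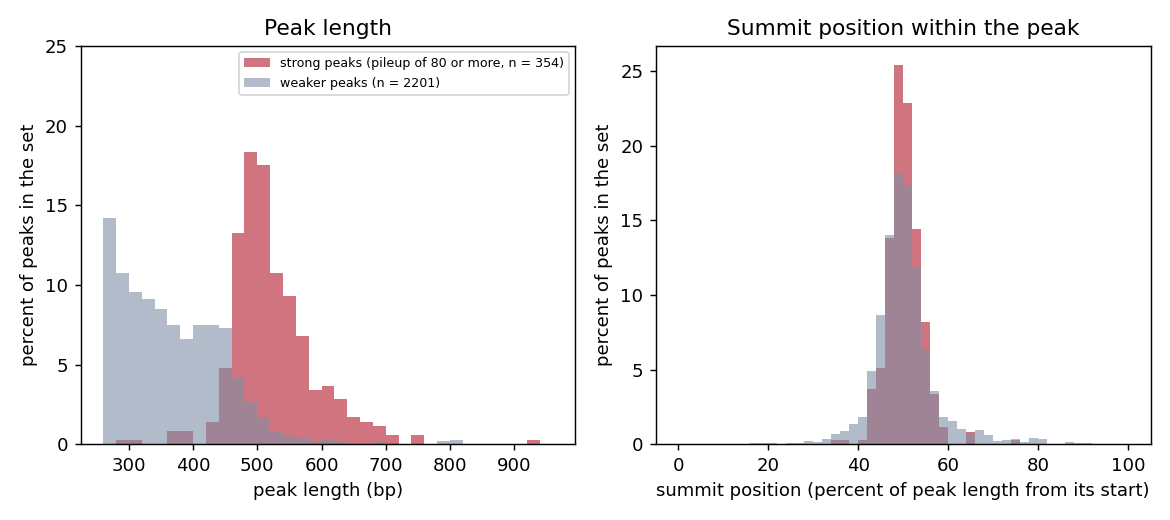
Distribution of peak length in bp (left) and of the summit's position as a percent of peak length from the peak's start (right), each as a percent of the 354 strong or the 2201 weaker chromosomal peaks. The median length was 509.5 bp in strong and 354 bp in weaker peaks, and both sets centred their summits near 50%.

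Strong peaks occurred on all 10 chromosomes. Chromosome 1 had the most, 54 of its 382 peaks (14.1%, interval 10.8 to 18.0). Chromosome 3 followed with 51 of 302, the highest share of the 10 (16.9%, interval 12.8 to 21.6). Chromosomes 5, 4 and 7 had 46 (15.9%), 43 (14.8%) and 33 (14.8%). Chromosomes 8, 2 and 6 had 29 (14.0%), 41 (12.7%) and 22 (12.2%). The lowest shares were on chromosome 9, with 18 of 172 (10.5%, interval 6.32 to 16.0), and chromosome 10, with 17 of 185 (9.19%, interval 5.44 to 14.3). The intervals of all 10 chromosomes overlapped, and each held the share of 13.9% over all chromosomes.

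Per Mb of span between the first and last summit, the number of strong peaks ran from 0.115 on chromosome 10 to 0.220 on chromosome 3. The median pileup of strong peaks differed little between chromosomes, from 96 fragments on chromosome 9 to 110 on chromosome 4. The chromosomes' own highest pileups ranged from 169 fragments on chromosome 10, at 72446089 to 72446715, to the 327 on chromosome 8. Those of chromosomes 2, 5 and 9 were 203 fragments at 237488571 to 237489229, 176 at 170565902 to 170566501 and 204 at 150283435 to 150284024.

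**Figure D3:**
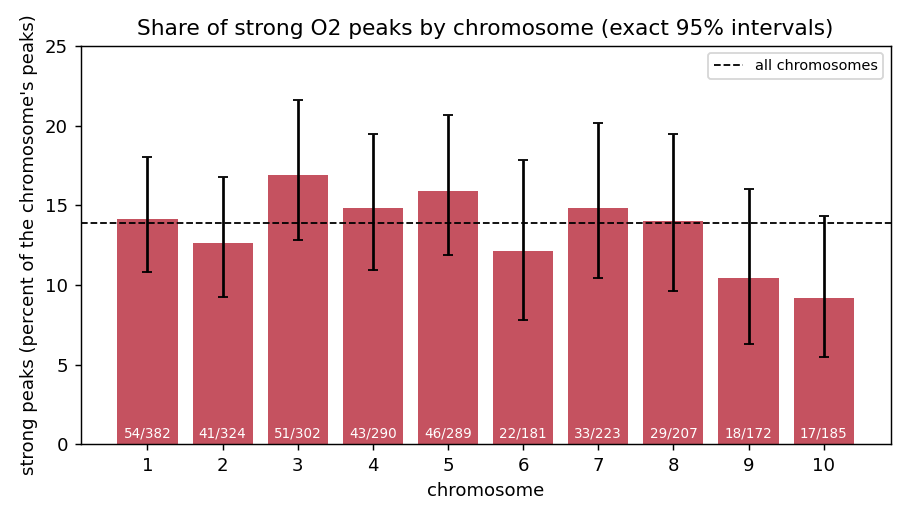
Strong peaks as a percent of the peaks on each chromosome, with exact 95% intervals, the number of strong peaks over all peaks inside each bar and the share over all chromosomes as a dashed line. The shares ran from 9.19% on chromosome 10 to 16.9% on chromosome 3, and every interval crosses the line.

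Along the chromosomes, strong peaks were placed less toward the ends than weaker ones. The outermost 25% at each end, measured between a chromosome's first and last summits, held 172 of 354 strong peaks (48.6%, interval 43.3 to 53.9) and 1287 of 2201 weaker peaks (58.5%, interval 56.4 to 60.5), where an even spread gives 50.0%. The outermost 10% at each end held 69 strong peaks (19.5%, interval 15.5 to 24.0) and 606 weaker ones (27.5%, interval 25.7 to 29.5). Cut into 10 equal parts, the span held 7.06% of strong and 13.9% of weaker peaks in its first part, and 12.4% of strong and 13.7% of weaker peaks in its last. Part 5 held 13.8% of strong and 7.95% of weaker peaks, so 21.9% of the peaks there were strong (interval 16.6 to 27.9). That share was the highest of the 10 parts. Part 4 held 12.4% of strong and 8.45% of weaker peaks. Parts 6 and 7 showed no excess, at 8.76% and 7.06% of strong and 8.81% and 7.54% of weaker peaks. Position was not used by the rule, but the peaks of 1 library are not replicates. The difference in place between strong and weaker peaks was not tested.

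The order was the same on most chromosomes. The share in the outer 25% was lower in strong than in weaker peaks on 9 of 10 chromosomes. It averaged 49.5% ± 8.51 for strong and 58.5% ± 3.30 for weaker peaks (SD, n = 10 chromosomes). Chromosomes of 1 library are not replicates, and each held only 17 to 54 strong peaks. The widest gap was on chromosome 8, at 37.9% of strong and 58.4% of weaker peaks. Chromosome 6 was the exception, at 68.2% of its 22 strong and 62.3% of its weaker peaks. For the outer 10%, strong peaks had the lower share on 8 of 10 chromosomes.

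By pileup, the outer 25% held 59.3% of peaks under 20 fragments (n = 600), 59.9% of those with 20 to 39 (n = 1042) and 54.9% of those with 40 to 79 (n = 559). It held 49.0% at 80 to 99 fragments (n = 155), 50.3% at 100 to 149 (n = 155), 38.7% at 150 to 199 (n = 31) and 46.2% at 200 or more (n = 13). The intervals of the last 2 classes are wide, from 21.9 to 57.8% and from 19.2 to 74.9%. Within the strong peaks, those in the outer 25% and those in the inner 50% had much the same signal, with median pileups of 103 and 106 fragments, median folds of 24.5 and 24.2 and median backgrounds of 3.37 and 3.55.

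**Figure D4:**
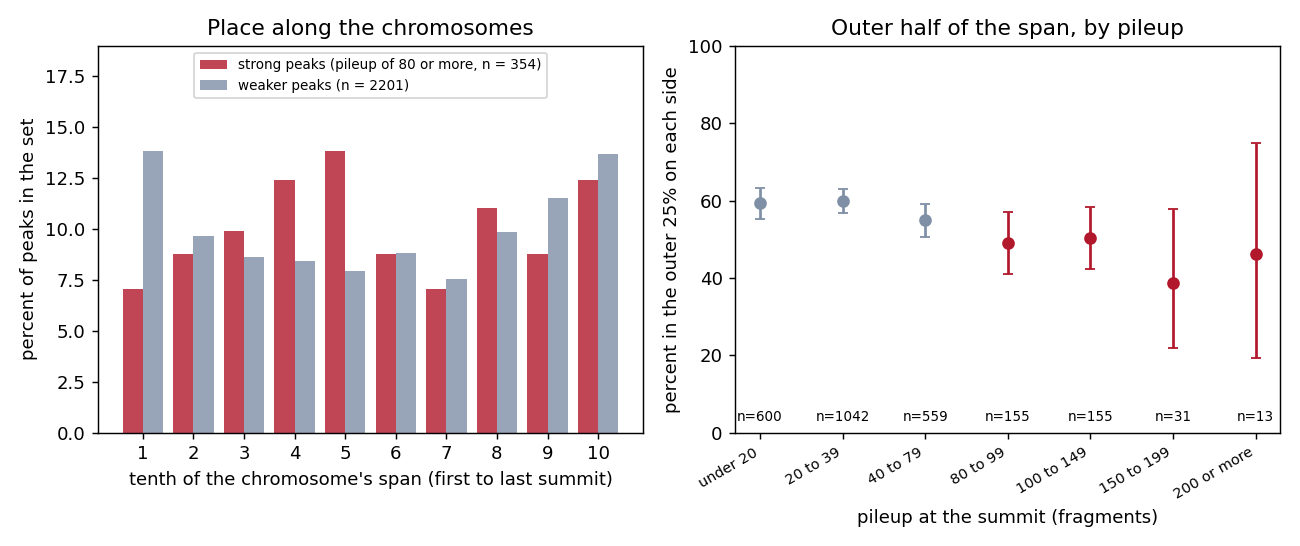
Left, percent of the 354 strong and the 2201 weaker chromosomal peaks in each of 10 equal parts between a chromosome's first and last summits, over 10 chromosomes. Right, percent of peaks in the outer 25% on each side by pileup at the summit, with exact 95% intervals and the number of peaks in each class. The share was 59.3% under 20 fragments and 49.0% at 80 to 99.

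Strong peaks lay somewhat nearer to a strong peak than weaker peaks did. The nearest other strong peak was at a median distance of 1670 kb from a strong peak (quartiles 556 and 3502 kb), and the nearest strong peak at 2059 kb from a weaker peak (quartiles 809 and 4400 kb). A strong neighbour lay within 1 Mb of 129 strong peaks (36.4%, interval 31.4 to 41.7) and of 653 weaker peaks (29.7%, interval 27.8 to 31.6), or 30.6% of all chromosomal peaks. Within 10 kb there was one for 4 strong peaks (1.13%, interval 0.309 to 2.87) and 3 weaker peaks (0.136%, interval 0.0281 to 0.398). Within 100 kb the shares were nearly equal, at 3.95% of strong (interval 2.18 to 6.55) and 3.73% of weaker peaks (interval 2.97 to 4.60). No strong peak was found within 10 Mb of 13 strong peaks (3.67%) and of 138 weaker peaks (6.27%). These differences were not tested. Between neighbouring strong peaks on a chromosome the median number of weaker peaks was 4 and the highest 40, and 62 of 344 such intervals (18.0%) held none.

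The widest interval without a strong peak ran over 44.2 Mb of chromosome 6, from the summit at 68845669 to that at 112997919, and held 31 weaker peaks. Chromosome 9 had the next 2, of 39.9 and 37.5 Mb, with 35 and 40 weaker peaks. The most strong peaks in a row with no weaker peak between them was 4, found at 2 places. On chromosome 7 the 4 summits from 131748611 to 132202045 lay within 0.453 Mb, with pileups of 157, 111, 116 and 91. On chromosome 1 they ran over 4.71 Mb from 72611288, with pileups of 83, 130, 126 and 81. The choice of these intervals and rows was made after seeing their values.

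The 5 closest pairs of strong peaks were 5.94, 8.26, 21.0, 31.9 and 35.9 kb apart. The closest pair, on chromosome 6 at 8758333 to 8758797 and 8764271 to 8764767, had nearly equal pileups of 84 and 85 fragments. The pair on chromosome 9 at 72655583 to 72656061 and 72663861 to 72664310 had 96 and 90. In the other 3 pairs the pileups differed more. On chromosome 10 at 72425228 and 72446089 they were 82 and 169, on chromosome 1 at 72611099 and 72642907 they were 83 and 130, and on chromosome 1 at 274153358 and 274189294 they were 137 and 101.

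Weaker peaks were seldom within 10 kb of strong ones, and the contrast was smaller at longer distances. The nearest weaker peak was at a median of 351 kb from a strong peak (quartiles 128 and 710 kb), and at 288 kb from a weaker peak (quartiles 110 and 609 kb). Within 10 kb a weaker peak was listed for 3 strong peaks (0.847%) and for 107 weaker peaks (4.86%). Within 100 kb one was listed for 20.3% of strong (interval 16.3 to 24.9) and 23.6% of weaker peaks (interval 21.8 to 25.4). Within 500 kb the shares were 63.8% and 68.8%. Counting neighbours of either kind, 39 strong peaks (11.0%, interval 7.95 to 14.8) and 347 weaker peaks (15.8%, interval 14.3 to 17.4) had one within 50 kb. Within 1 Mb, 91.8% of strong and 91.6% of weaker peaks had one. The outer 25% held 48.6% of the strong peaks and 57.1% of all peaks, and the part of this in the spacing was not tested. Among outer peaks alone the median distance to any other peak was 243 kb for strong and 217 kb for weaker ones, and among inner peaks it was 311 kb for strong and 296 kb for weaker ones.

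The strong peak with the nearest weaker neighbour was on chromosome 2 at 5087427 to 5087920. It had 84 fragments, and 842 bp away a peak at 5086613 to 5087029 had 43. The next was on chromosome 4 at 188054038 to 188054561, with 88 fragments and a neighbour of 23 fragments 1796 bp away. The third, on chromosome 3 at 217647586 to 217648093, had 94 fragments, and its neighbour 8877 bp away had 10. The other 2 of the 5 closest were at 11584 and 11659 bp, beside neighbours of 13 and 22 fragments.

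The same libraries were also called on an earlier genome release (15), in a list of 1686 peaks of which 1681 were chromosomal. There 168 chromosomal peaks (9.99%) had a pileup of 80 or more. That list names its peaks with the word "uniq", which the names of release 26 lack. Peaks were linked between the lists by the spacing to their neighbouring summits, since positions of the 2 releases differ. A partner was found for 280 of 354 strong peaks (79.1%, interval 74.5 to 83.2) and for 1092 of 2201 weaker peaks (49.6%, interval 47.5 to 51.7). A partner has to be called in release 15, which the choice by pileup favours, so the contrast in shares is partly built in. Of 1362 neighbouring linked pairs only 1 was out of order. As the libraries are the same in both releases, a partner is no replicate check. Whether the same reads entered both lists is not given. The value read as 1 IgG fragment was 0.979 in release 26. Release 15 backgrounds included 0.995, 2.98 and 3.98, multiples of 0.995 instead, so the IgG scale differed between the lists. The number linked depends on the settings of the link, and 44.1% of strong peaks had a partner with a tolerance of 50 bp.

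Many strong peaks had a lower pileup in release 15. Of the 280 linked ones, 148 (52.9%, interval 46.8 to 58.8) also had a pileup of 80 or more there. The median of the 280 was 105 fragments in release 26 and 81 in release 15. Their lowest background was 1.35 in release 26 and 0.961 in release 15. Pileups were compared as listed, without scaling, so the limit of 80 may not mean the same signal in both lists. The release 26 pileup was within 10% of the release 15 one at 88 (31.4%), which include all 31 where it was lower, and at least 2 times as high at 73 (26.1%, interval 21.0 to 31.6). The lowest ratio of release 26 to release 15 pileup among the 280 was 0.925. Of the 1092 linked weaker peaks 79 (7.23%, interval 5.77 to 8.93) were at least 2 times as high. Choosing peaks by their release 26 pileup favours those that gained, so this contrast is partly built in. Seen from release 15, 151 of its 168 peaks with 80 or more fragments were linked, and 148 of these also reached 80 in release 26.

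The 73 strong peaks that were at least 2 times as high had a median of 109 fragments in release 26 and 33 in release 15. Their median background was 3.91 in release 26 and 1.99 in release 15. The other 207 linked strong peaks had medians of 103 and 88 fragments in release 26 and release 15, over backgrounds of 3.37 and 2.98. The cause of the gains was not tested. A release 26 fold of at least 20 was reached by 47 of the 73 (64.4%) and 150 of the 207 (72.5%). The outer 25% held 34 of the 73 (46.6%, interval 34.8 to 58.6) and 102 of the 207 (49.3%, interval 42.3 to 56.3), near the 48.6% of all strong peaks.

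The highest ratio was on chromosome 7 at 126298745 to 126299255, with 109 fragments in release 26 and 9 in release 15. Its background was 5.87 in release 26 and 0.995 in release 15. A peak on chromosome 4 at 239287694 to 239288158 had 129 fragments in release 26 and 13 in release 15. On chromosome 7 at 131748359 to 131748863, the first of the 4 strong peaks in a row there, the pileup was 157 in release 26 and 17 in release 15. The choice of these 3 was made after seeing their values. Among the peaks with the highest pileup, the chromosome 8 peak with 327 fragments had 121 in release 15, over backgrounds of 25.4 in release 26 and 6.96 in release 15. The chromosome 1 peak with 270 had 123 in release 15, while the chromosome 7 peak with 265 had 266. The chromosome 6 pair 5.94 kb apart hardly moved, with 84 and 85 fragments in release 26 and 82 and 81 in release 15.

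**Figure D5:**
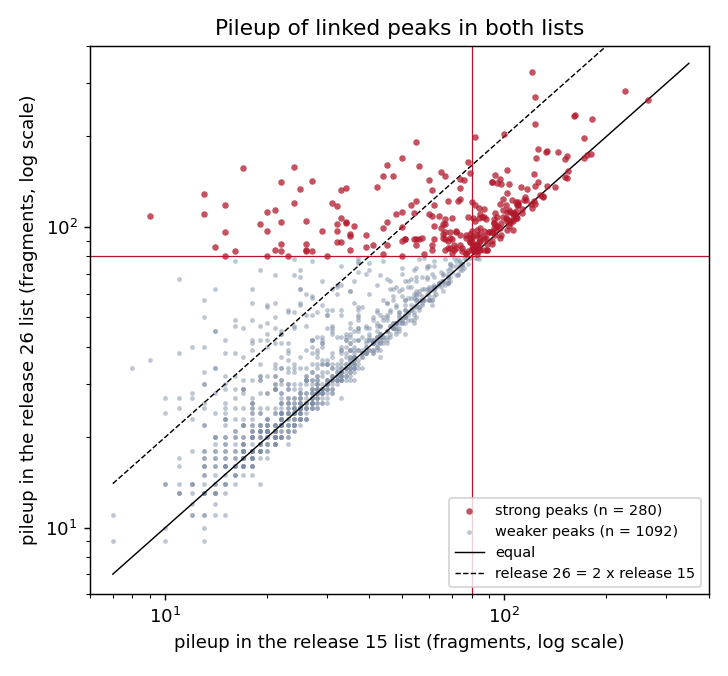
Pileup of linked peaks in release 26 (vertical) against release 15 (horizontal), in fragments on log scales, for 280 strong and 1092 weaker chromosomal peaks. The solid diagonal marks equal pileup, the dashed one 2 times the release 15 pileup, and the straight lines a pileup of 80 in each list. Of the strong peaks 148 lie right of the vertical line and 132 left of it.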

How the data were processed

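Per the submitters' processing notes, reads were mapped with Bowtie2 and peaks called with MACS2, named in versions 2.0.10 and 2.1.0. Which of these versions made a given list is not stated, and assembly, read filters and threshold are likewise not given in the sources read for this work. Per the file headers, the authors deposited for each peak a pileup signal at the summit, a fold enrichment ratio, and -log10 p and -log10 q values. In the release 26 list the headers of the p-value and q-value columns were overwritten. They were identified by their order and by the summit list, whose score equals the second. The IgG sample carries both deposited summit lists, yet all 2567 and 1686 summits in them were those of the O2 peaks.

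Computed here with Python 3.11.15, numpy 2.4.6, pandas 2.3.3 and scipy 1.17.1 were the background, as (pileup + 1) / fold - 1, distances between summits, place in the span from first to last summit, and exact 95% intervals. A background counted as whole IgG fragments within 0.005 of a fragment. Strong peaks were those with a pileup of 80 or more. Peaks of the 2 lists were linked where at least 2 neighbouring summits within 5 Mb lay at the same distance within 1000 bp and each peak was the other's best match, at most 10 Mb apart. The functions were tested on simulated data. No test was made, since each antibody had 1 library. The members, the named peaks and the measures were chosen with earlier results of these data known. Named peaks were the 10 highest by pileup, the highest of each chromosome, 5 on each side of the limit, the 3 longest, shortest, highest and lowest in fold, the 5 closest pairs and the 5 with the nearest weaker peak. Others are marked as chosen after seeing their values. Genes of O2 targets and site sequences were not analysed here, as the gene table given is for a different assembly, Zm-B73-REFERENCE-NAM-5.0. Other pileup limits, stricter q values, other distances and the release 15 list were tried as alternatives.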

Additional observations from a re-analysis of the deposited data

Results flagged for a closer look

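Outside chromosomes 1 to 10, 5 peaks of the release 26 list also had a pileup of 80 or more, above their IgG-based background. One lay on an unplaced scaffold and had 168 fragments and a fold of 31.2. The mitochondrial peak had 401 fragments over a background of 114.4 (fold 3.48). The 3 plastid peaks had 89, 224 and 263 fragments over 24.4, 154.6 and 183.0, with folds of 3.55, 1.45 and 1.43. These peaks entered none of the comparisons.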

How the results depend on the processing

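No paired analysis was possible because each antibody has 1 library, and for the same reason no library could be left out. Of 49 alternative values, 30 stayed within the interval of the reported share, or within 1.5 times of the reported count. The other 19 moved, most of them because the alternative itself redefines the set or the distance. With a pileup minimum of 60 there were 556 strong peaks (21.8% of peaks), 54.5% with a fold of at least 20 and 47.8% with another strong peak within 1 Mb. With a minimum of 100 there were 199 (7.79%), with 80.9% and 27.6%. At a -log10 q of at least 10, strong peaks were 20.6% of the peaks left. The release 15 list had 168 strong peaks (9.99%), with 21.4% within 1 Mb of another. A strong peak within 500 kb had 22.0% and within 2 Mb 56.5%, any peak within 10 kb 1.98% and within 100 kb 22.9%. The outer 10% of the span held 19.5% of strong peaks. A tolerance of 50 bp linked 44.1% of strong peaks to the release 15 list and a further neighbour 70.1%, while the share of linked partners with a pileup of 80 or more ran from 50.0 to 53.2% over 3 settings of the link, 1 of them, a tolerance of 500 bp, added after the data had been seen. The share of strong peaks in the outer 25% ran from 48.2 to 49.7% under the other minimums, q, background and list, against 57.9 to 59.2% of weaker peaks, and was 51.1% for the same number of peaks chosen by fold, also added later. Depth is unknown and limits every count near a pileup of 80.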
